A study of Rattus norvegicus with 30 samples.

Results

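The comparison described here was that of the dorsal hippocampus between rats with traumatic brain injury (TBI) and sham-operated rats, by mRNA sequencing. Its members were all 10 hippocampal libraries, of the 30 libraries from 3 brain areas, and every gene of the hippocampal count table that passed a filter on low counts. All animals were adult male Sprague-Dawley rats, and tissue was taken 3 months after the operation. Rats 1 to 5 were sham-operated controls, and rats 6 to 10 received TBI by lateral fluid percussion injury, a model in which a pulse of fluid strikes the intact dura through an opening in the skull. Each rat gave 1 library per brain area, so that the 10 hippocampal libraries came from 10 animals, and the cortical and thalamic libraries used beside them came from the same rats. The sample labels name the tissue dorsal hippocampus, whereas the dissection is described as the dentate gyrus with the adjoining part of field CA3. The deposited tables list genes by Ensembl identifier alone, and none of the 26404 identifiers was found in the name table at hand. The labelled tissue could therefore not be checked against marker genes, and genes are described as groups and, for the 4 identifiers chosen by rule, one by one.

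The hippocampus forms new memories of places and events, and the dentate gyrus, its entry gate, limits how much excitation passes from the entorhinal cortex to CA3. After lateral fluid percussion injury the hippocampus of the injured side is known to lose hilar neurons, to gain reactive astrocytes and microglia, and to grow new mossy fibre collaterals, and the region is studied for its part in memory impairment and in post-traumatic epileptogenesis. In libraries from whole tissue, fewer cells of a type and less RNA per cell cannot be told apart.

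The libraries held 23903839 to 29536124 counts in the sham group and 28193436 to 30446501 in the TBI group. Any 2 libraries of a group differed by more than counting noise (chi-square per degree of freedom 15.6 to 487 over 20 pairs), and none was a copy of another. The sham libraries 4 and 5 stood apart from the other 8. Their 10 most counted genes took 44.1% and 40.9% of all counts, against 9.95% to 16.4% in the other libraries, and their scaling factors were 0.569 and 0.609 against 1.06 to 1.23. They also reached 1 CPM (counts scaled to library size) in fewer genes, at 13920 and 14090 against 15091 to 15519. The median Spearman correlation across genes with the other libraries was 0.990 for library 4 and 0.989 for library 5, the lowest of all, in a range of 0.989 to 0.993 over the 10 libraries.

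The libraries labelled rat 3 (sham) and rat 8 (TBI) went against their labels. One gene split the rats in the same way in the cortex and in the thalamus, without following the injury, and was found by a rule that used no hippocampal value. It was high in rats 1 and 8 in the cortex (3.17 and 3.63 CPM, against 0.103 to 0.480 CPM in the other rats) and again in the thalamus (1.66 and 1.25 CPM, against 0 to 0.302 CPM). In the hippocampus it was high in the libraries labelled rat 1 (6.51 CPM) and rat 3 (5.66 CPM), the library labelled rat 8 was at 0.574 CPM, and the other 7 were at 0.0699 to 0.221 CPM. The library labelled rat 8 thus lay above those 7 and far below the high pair. The same mismatch appeared with 26 genes that differed between rats of 1 treatment in parallel in cortex and thalamus, a set added after the data were seen. The mean of each treatment group was removed in cortex and thalamus, and the mean of all 10 libraries in the hippocampus. After this, 8 of the 10 hippocampal libraries resembled their own rat most (Pearson r across the 26 genes 0.674 to 0.847). The library labelled rat 3 resembled rat 8 most (r = 0.858, against −0.157 for rat 3), with rat 4 next at 0.720, and the library labelled rat 8 resembled rat 3 (r = 0.930, against −0.243 for rat 8). With 49 genes from a looser limit on the spread, likewise added later, the same 8 libraries of 10 matched (r = 0.456 to 0.810), and the crossed values were 0.820 and 0.838. The match of library 1 was then nearly tied, at 0.456 for its own rat and 0.448 for rat 3. These correlations describe genes that share libraries and are given without a test. Labels were kept as deposited, no library was moved to the other group, and the main results below are given with and without these libraries.

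**Figure D1:**
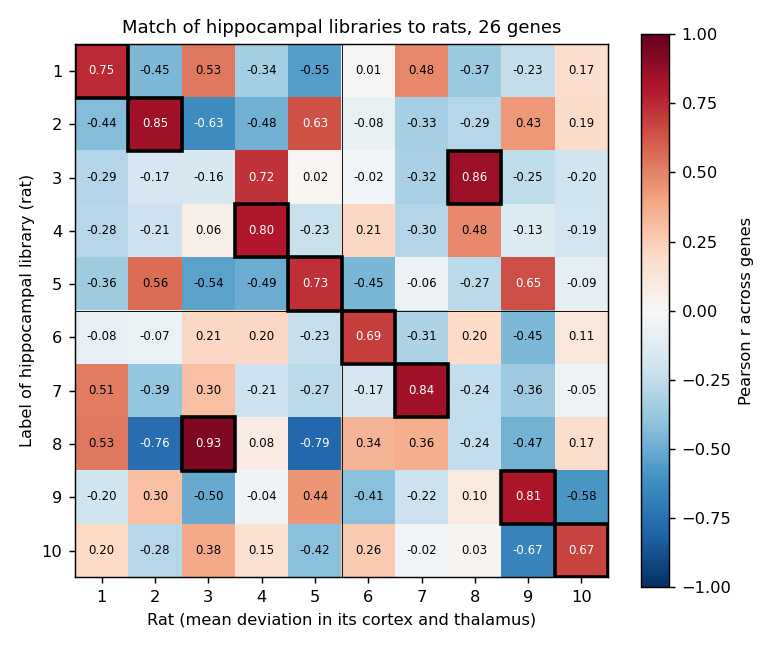
Pearson correlation across 26 genes between each hippocampal library (vertical axis, by its label) and the mean of the cortical and thalamic libraries of each rat (horizontal axis), on log2 CPM. The mean of each treatment group was removed in cortex and thalamus, and the mean of all 10 libraries in the hippocampus. Outlined cells mark the best match of each library, which lay on the diagonal for 8 of 10 libraries and off it for those labelled rat 3 (r = 0.858 with rat 8) and rat 8 (r = 0.930 with rat 3).

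With all 10 libraries, no hippocampal gene passed the threshold between rats with TBI and sham-operated rats in the edgeR quasi-likelihood test. Of the 16963 genes tested, 0 were higher (0%) and 0 lower (0%) at an adjusted p under 0.05, the minimum being 0.480. Before adjustment, p was under 0.05 for 885 higher genes (5.22% of those tested) and 547 lower genes (3.22%). Differences were small over the whole table, with a median size of 0.10 on the log2 scale and 153 genes that differed by more than 2-fold. The TBI libraries lay above every sham library in 88 genes (0.519%) and below every sham library in 79 (0.466%). DESeq2, the tool named in the study's methods, called 11 genes higher and 30 lower on the same libraries, of which 2 and 11 had groups that did not overlap. With its filtering tuned to 0.1, a setting added after the data were seen, it called 7 higher and 8 lower. The other edgeR and limma fits on all 10 libraries called 0 genes, and they gave 748 to 1958 genes at an unadjusted p under 0.05 over both directions. The lowest count, 398 higher and 350 lower genes, came with the share of the 10 most counted genes as a covariate.

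Most of the genes that were higher before adjustment with all 10 libraries also rose in the cortex of the same rats. Of the 885 higher genes, 879 could be tested in the perilesional cortex, where 592 rose (67.3%, against 14.2% of all genes tested there) and 16 fell. Their median log2 fold change in the cortex was 0.67. In the thalamus 255 of 868 rose (29.4%, against 3.77% of all genes). They made up 24.3% of the genes that rose in the cortex and 40.7% of those that rose in the thalamus. Of the 547 lower genes, 141 of 531 fell in the cortex (26.6%, against 11.6% of all genes) and 12 of 496 in the thalamus (2.42%, close to the 1.85% of all genes). Shares were smaller for the 88 genes with every TBI library above every sham library. Of these, 32 of 85 rose in the cortex (37.6%) and 7 of 82 in the thalamus (8.54%). Of the 79 genes with every TBI library below every sham library, 14 of 78 fell in the cortex (17.9%) and 0 of 77 in the thalamus. The 11 genes that DESeq2 called higher rose in the cortex in 10 cases (90.9%, against 14.2% of all genes) and in the thalamus in 9 (81.8%, against 3.77%). Of the 30 it called lower, 4 fell in the cortex (13.3%, close to the 11.6% of all genes). In the thalamus 0 of the 26 tested fell (0%, against 1.85% of all genes). These tallies rest on lists that shrank to 7 and 8 genes under the other filtering, and without the libraries labelled rat 3 and rat 8 edgeR called 9 of the 11 and 1 of the 30.

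In edgeR, more than 3 genes passed the threshold only in fits without the libraries labelled rat 3 and rat 8, among those run. Without these libraries, 246 of 16960 genes rose (1.45%) and 17 fell (0.1%) by the edgeR test in 4 against 4 rats, with a smallest adjusted p of 5.0e-05. DESeq2 called 398 genes higher and 120 lower on the same 8 libraries, among them 245 of the 246 and all 17 of the 17. Before adjustment, p was under 0.05 for 1373 higher genes (8.1%) and 693 lower genes (4.09%), and groups of 4 did not overlap in 894 genes above (5.29%) and 403 below (2.38%). The biological coefficient of variation, 1 value over all genes, was 0.148 without these libraries and 0.146 with all 10. After the data were seen, every other choice of 1 sham and 1 TBI library to leave out was fitted as well. In those 24 other pairs the test called 0 to 3 genes, with 0 in 21 of them. The unadjusted count was between 727 and 2170. These fits share libraries with each other, and the cause of the rise in calls was not tested.

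**Figure D2:**
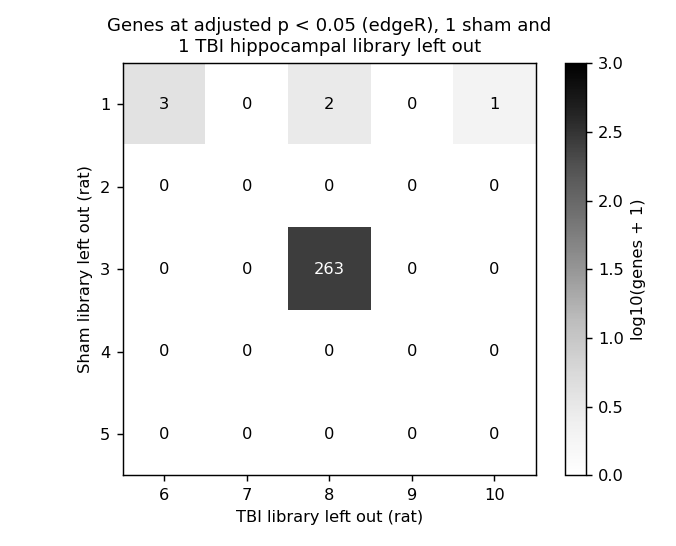
Number of hippocampal genes at an edgeR adjusted p under 0.05 when 1 sham library (vertical axis) and 1 TBI library (horizontal axis) were left out, shaded by log10 of the number plus 1. The pair of libraries labelled rat 3 and rat 8 gave 263 genes, and the other 24 pairs gave 0 to 3.

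Leaving out only one of these libraries brought few or no edgeR calls. Without the library labelled rat 3, edgeR called 0 genes, with a smallest adjusted p of 0.0518 and 2089 genes at an unadjusted p under 0.05, and DESeq2 called 291 higher and 118 lower. Without that labelled rat 8, edgeR called 1 gene, with 1597 genes at an unadjusted p under 0.05, and DESeq2 called 137 higher and 30 lower. In the other 8 leave-one-out fits edgeR called 0 genes, with 997 (without rat 2) to 1453 (without rat 6) at an unadjusted p under 0.05, and DESeq2 called 0 to 23 higher and 0 to 73 lower, both highest without rat 1. Leaving out sham libraries 4 and 5 did not bring such calls. Without these libraries and with those labelled rat 3 and rat 8 kept, edgeR called 0 of 17372 genes (947 at an unadjusted p under 0.05) and DESeq2 called 1 gene, which was lower. Without all 4 libraries, in 2 against 4 rats, 76 genes were higher and 6 lower, and 66 of the 76 and 3 of the 6 were among the 246 and 17 genes. The deposited column names carry an FC code for 9 of the 10 libraries, and 7 libraries (rats 2, 3, 4, 6, 7, 8 and 9) share 1 code. Within that code 0 of 17168 genes were called (860 at an unadjusted p under 0.05), and 89 were higher and 15 lower once the libraries labelled rat 3 and rat 8 were left out (2 against 3 rats). The comparison within FC codes was added after the data were seen.

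The 246 genes that rose without the libraries labelled rat 3 and rat 8 changed by a median log2 fold change of 0.73 (quartiles 0.58 and 1.09). In 183 of them the change was over 1.5-fold and in 71 over 2-fold. One gene had 0 counts in all 4 sham libraries and is left without a fold change, and the largest value among the other 245 was 3.71. Their levels were ordinary, with a median of 10.7 CPM against 11.6 CPM for all genes tested, and calls of both directions came from every level (63, 74, 72 and 54 genes in 4 equal bins of genes, from the lowest level to the highest). The 17 genes that fell had a median of −0.71 (quartiles −0.90 and −0.54, largest fall −1.43), and 3 of them fell more than 2-fold. With all 10 libraries the same genes had medians of 0.49 and −0.48, and 224 of the 246 and 16 of the 17 were at an unadjusted p under 0.05. The size of these lists depended on single rats, since leaving out a further library from the 8 gave 94 to 279 higher and 5 to 37 lower genes. The number of higher genes was 94 without TBI rat 7, 114 without sham rat 2, 121 without TBI rat 6, 137 without sham rat 4 and 162 without sham rat 5. These genes were chosen on 8 libraries, and their values in those libraries are given as a description.

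The values of the libraries labelled rat 3 and rat 8 had no part in the choice of these genes, and these libraries could be placed among the others. Which libraries to leave out was, however, chosen with earlier results of these data known. The gap between the groups below is that of the libraries on which the genes were chosen. The mean log2 CPM of the 246 genes, taken as a difference from the mean of sham rats 1, 2, 4 and 5, was −0.01, 0.01, 0.02 and −0.02 in those rats and 1.01, 0.93, 0.70 and 0.83 in TBI rats 6, 7, 9 and 10. The library labelled sham rat 3 was at 0.70, beside the lowest of these TBI rats, and that labelled TBI rat 8 was at 0.24, between the groups and nearer the sham rats. Gene by gene, on a scale where 0 is the mean of the 4 sham libraries and 1 that of the 4 TBI libraries, the library labelled rat 3 had a median of 0.814 (quartiles 0.659 and 0.970) and that labelled rat 8 a median of 0.277 (quartiles 0.140 and 0.442). The library labelled rat 3 exceeded all 4 sham libraries in 240 of the 246 genes, reached the range of the 4 TBI libraries in 144, and lay nearer the TBI mean in 223. The library labelled rat 8 exceeded all 4 sham libraries in 129 of the 246 genes, reached the range of the 4 TBI libraries in 15, and lay nearer the sham mean in 202. The matching share over all genes tested was not computed for either library, so these counts are a description only.

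The 17 genes that fell gave a less clear placement of the same libraries. Their mean difference was −0.63 to −0.79 in TBI rats 6, 7, 9 and 10, −0.55 in the library labelled rat 3 and −0.35 in that labelled rat 8. The library labelled rat 3 lay nearer the TBI mean in 11 of the 17 genes. The library labelled rat 8 lay nearer the sham mean in 8 of the 17 and nearer the TBI mean in 9. For these counts too, the share over all genes was not computed.

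In the cortex and thalamus, rats 3 and 8 held the places their labels give them. For the 245 of these genes measured in the cortex, the mean difference was −0.11 to 0.06 in the sham rats, with rat 3 at 0.02, and 1.09 to 1.48 in the rats with TBI, with rat 8 at 1.31. In the thalamus it was −0.15 to 0.26 in the sham rats, with rat 3 at −0.10, and 0.29 to 1.30 in the rats with TBI, with rat 8 at 1.30 and rat 6 lowest. In both areas the sham and TBI rats did not overlap in this mean.

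**Figure D3:**
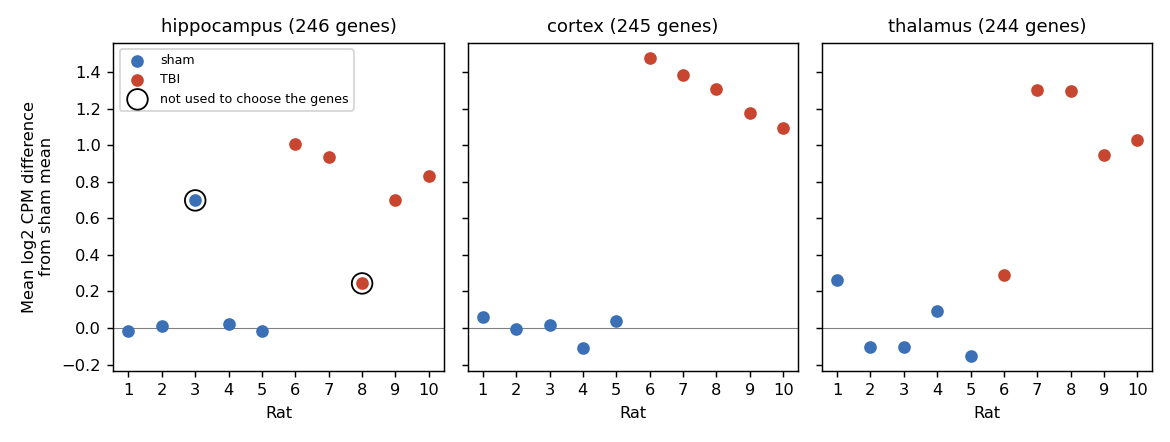
Mean log2 CPM of the 246 hippocampal genes that rose without the libraries labelled rat 3 and rat 8, by rat and brain area, as a difference from the mean of the sham libraries (in the hippocampus sham rats 1, 2, 4 and 5). Circled points are the libraries that were not used to choose the genes. In the hippocampus they lay at 0.70 (rat 3, sham) and 0.24 (rat 8, TBI), whereas in cortex and thalamus rat 3 lay among the sham rats and rat 8 among the rats with TBI.

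The genes that rose in the hippocampus without those libraries were mostly genes that also rose in the other areas of the injured side. In the perilesional cortex 229 of 245 rose (93.5%, against 14.2% of all genes tested), 0 fell, and the median log2 fold change was 1.08, larger than the 0.73 in the hippocampus. All 5 rats with TBI lay above all 5 sham rats in the cortex in 220 of the 245, against 10.2% of all genes. In the thalamus 159 of 244 rose (65.2%, against 3.77% of all genes), 1 fell, and the median log2 fold change was 0.98. Groups did not overlap in the thalamus in 74 of the 244, against 2.75% of all genes. The genes shared with the cortex made up 9.40% of the 2437 genes that rose there, and those shared with the thalamus 25.4% of the 626 that rose there. Of the 17 genes that fell in the hippocampus, 11 of 16 fell in the cortex (68.8%, against 11.6% of all genes), 1 rose, and the median was −0.46. In the thalamus 2 of 16 fell (12.5%, against 1.85% of all genes), 0 rose, and the median was −0.28. They were 0.550% of the 1999 genes that fell in the cortex. The areas were dissected from the same rats, so these counts do not come from separate animals.

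**Figure D4:**
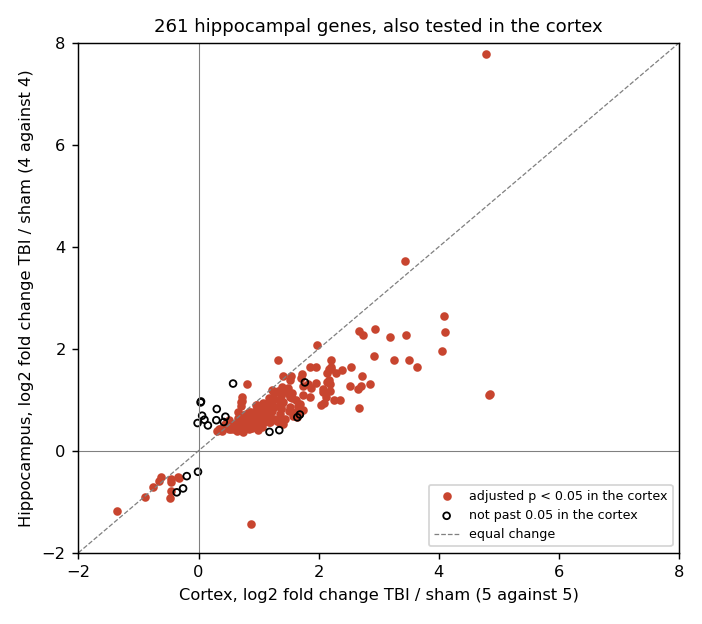
Log2 fold change after TBI in the hippocampus, without the libraries labelled rat 3 and rat 8, against that in the cortex, for the 261 genes called in the hippocampus and tested in both areas. Filled points passed an adjusted p under 0.05 in the cortex (229 that rose in both, 11 that fell in both and 1 that fell in the hippocampus and rose in the cortex), the dashed line marks equal change, and the uppermost point is the gene with 0 counts in the 4 sham libraries, whose fitted fold depends on the prior count.

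Whether the response to TBI differed between hippocampus and cortex was tested with an interaction term for brain area and treatment over the libraries of both areas. With all libraries, 537 of 17688 genes responded differently to TBI in the hippocampus and the cortex (3.04%), and among the 532 of them tested in both areas the change was larger in the cortex in 525. With the rat as a block the count was 1048, of which 514 were shared, and DESeq2 called 1009. The block pairs each hippocampal library with the cortex of the rat on its label. It was not fitted without the hippocampal libraries labelled rat 3 and rat 8. Without the hippocampal libraries labelled rat 3 and rat 8 the count dropped to 126 of 17776 genes (0.709%), of which 123 were among the 537. In 115 of the 124 that were tested in both areas the change was again larger in the cortex, and in 58 the signs were opposite. Of the 246 genes that rose in the hippocampus without those libraries, 23 differed between the areas, all of them with the larger change in the cortex. For the other 223 genes no difference between areas was shown, which does not make the responses equal. The interaction count rested on single rats, at 117 without rat 2, 128 without rat 3, 140 without rat 8, 182 without rat 4, 263 without rat 9 and 355 without rat 6. It was 424 without rat 7 and 518 without rat 10, and it rose to 680 without rat 5 and 763 without rat 1. The count was 272 without hippocampal libraries 4 and 5 and 34 without all 4 doubtful libraries.

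The 4 identifiers described singly had the smallest p in each direction with all 10 libraries, among genes that averaged at least 1 CPM. None passed the adjusted threshold in edgeR with all 10 libraries (adjusted p = 0.480 for each), and what the genes encode is not given in the tables. DESeq2 gave an adjusted p to ENSRNOG00000000007 alone (0.0362) and left the other identifiers without one by its filtering. With the filtering tuned to 0.1, all 4 passed in DESeq2 (adjusted p = 0.0425 for each).

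ENSRNOG00000013967 was at 5.49, 4.68, 6.61, 5.21 and 5.32 CPM in sham rats 1 to 5 and at 8.38, 9.14, 6.56, 7.76 and 8.57 CPM in TBI rats 6 to 10. The groups overlapped by 1 library on each side, since the library labelled rat 3 was the highest of the sham group and that labelled rat 8, just below it, the lowest of the TBI group. The means were 5.46 ± 0.707 and 8.08 ± 0.982 CPM (SD, n = 5), with a log2 fold change of 0.56 (SE 0.12). The edgeR p before adjustment was 0.000243. Without the libraries labelled rat 3 and rat 8 it rose by 0.71 (SE 0.12, edgeR adjusted p = 0.00701). In the cortex the level went from 6.97 ± 0.862 to 11.6 ± 0.809 CPM (SD, n = 5, log2 fold change 0.74, edgeR adjusted p = 0.000160). In the thalamus it went from 9.09 ± 1.68 to 18.0 ± 4.54 CPM (SD, n = 5, log2 fold change 0.99, edgeR adjusted p = 0.0217). The gene thus rose in both other areas, and its response in the hippocampus was not shown to differ from that in the cortex (interaction −0.15, SE 0.16, edgeR adjusted p = 0.655). Without the libraries labelled rat 3 and rat 8 the interaction was −0.03 (SE 0.15, edgeR adjusted p = 0.956).

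ENSRNOG00000019203 was scarce, at 1.16, 2.19, 1.78, 1.48 and 1.80 CPM in sham rats 1 to 5 and 3.09, 2.85, 2.75, 3.21 and 2.67 CPM in TBI rats 6 to 10, from 21 to 104 counts per library. The groups did not overlap, and the libraries labelled rat 3 and rat 8 lay inside the groups of their labels. The means were 1.68 ± 0.388 and 2.91 ± 0.230 CPM (SD, n = 5), with a log2 fold change of 0.79 (SE 0.17). The edgeR p before adjustment was 0.000248. Without the libraries labelled rat 3 and rat 8 it was 0.84 (SE 0.20, edgeR adjusted p = 0.0553). The gene rose in the cortex, from 1.90 ± 0.936 to 5.79 ± 2.20 CPM (SD, n = 5, log2 fold change 1.60, edgeR adjusted p = 0.00532). In the thalamus the means were 2.39 ± 1.02 and 4.33 ± 1.26 CPM (SD, n = 5), which did not pass the threshold (edgeR adjusted p = 0.0992). The interaction with the cortex was −0.79 (SE 0.40, edgeR adjusted p = 0.286), and −0.77 (SE 0.45, edgeR adjusted p = 0.463) without those libraries.

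ENSRNOG00000018200 was lower after TBI in the hippocampus, at 23.2, 19.1, 19.5, 18.8 and 20.3 CPM in sham rats 1 to 5 and 16.0, 14.9, 16.2, 12.6 and 13.6 CPM in TBI rats 6 to 10. The groups did not overlap, and the library labelled rat 8 was the highest of the TBI group. The means were 20.2 ± 1.80 and 14.7 ± 1.52 CPM (SD, n = 5), with a log2 fold change of −0.46 (SE 0.09). The edgeR p before adjustment was 0.000128, and without the libraries labelled rat 3 and rat 8 the log2 fold change was −0.52 (SE 0.11, edgeR adjusted p = 0.0274). In the cortex the gene fell from 25.2 ± 3.27 to 16.2 ± 3.37 CPM (SD, n = 5, log2 fold change −0.63, edgeR adjusted p = 0.00326). In the thalamus the means were 11.1 ± 5.44 and 13.9 ± 4.78 CPM (SD, n = 5, edgeR adjusted p = 0.590), a difference of the other sign within a wide spread. The interaction with the cortex was 0.20 (SE 0.17, edgeR adjusted p = 0.556), and 0.11 (SE 0.18, edgeR adjusted p = 0.842) without those libraries.

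ENSRNOG00000000007 was at 95.1, 94.1, 78.4, 91.0 and 75.3 CPM in sham rats 1 to 5 and at 51.7, 66.2, 78.0, 57.6 and 59.2 CPM in TBI rats 6 to 10. The groups overlapped through the library labelled rat 8, which lay above sham rat 5, and the other 4 TBI libraries lay below every sham library. The means were 86.8 ± 9.24 and 62.6 ± 10.1 CPM (SD, n = 5), with a log2 fold change of −0.47 (SE 0.10). The edgeR p before adjustment was 0.000321. Without the libraries labelled rat 3 and rat 8 it fell by 0.60 on the log2 scale (SE 0.10, edgeR adjusted p = 0.00736). In the cortex it fell from 159 ± 10.8 to 101 ± 7.63 CPM (SD, n = 5, log2 fold change −0.65, edgeR adjusted p = 3.59e-05). In the thalamus the means were 77.2 ± 33.9 and 95.4 ± 31.2 CPM (SD, n = 5, edgeR adjusted p = 0.590). The interaction with the cortex was 0.21 (SE 0.13, edgeR adjusted p = 0.414), and 0.05 (SE 0.12, edgeR adjusted p = 0.912) without those libraries.

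**Figure D5:**
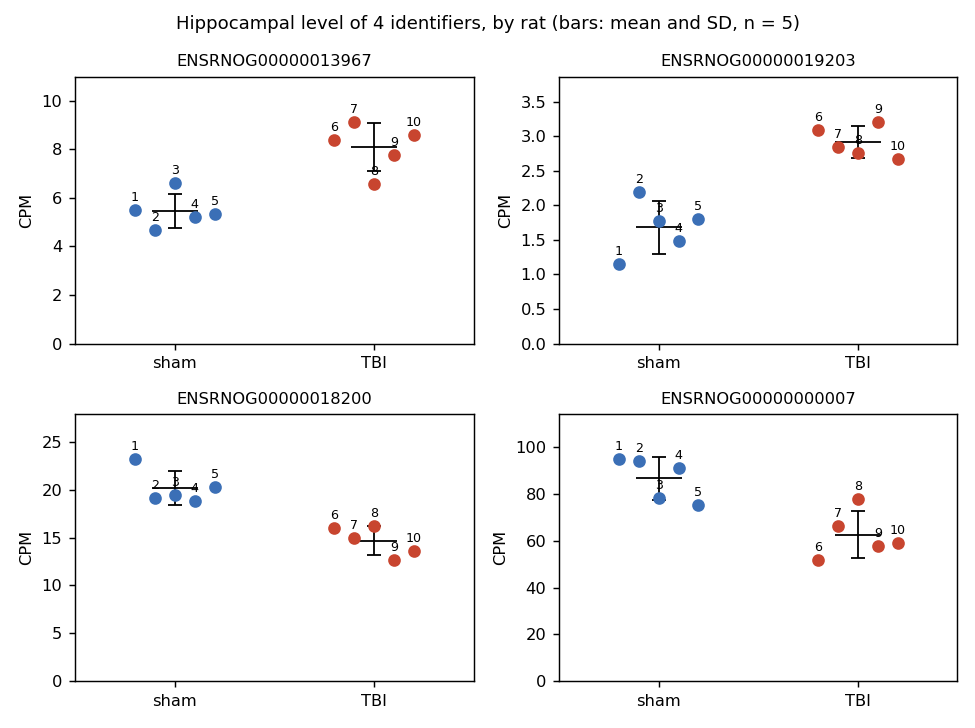
Level in CPM of the 4 identifiers in each hippocampal library, by group, with the rat number above each point and bars for the mean and SD (n = 5). The groups did not overlap for ENSRNOG00000019203 and ENSRNOG00000018200, and for the other identifiers they met at the library labelled rat 8, at 6.56 and 78.0 CPM.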

How the data were processed

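The authors aligned the reads to the Rnor_5.0 (RN5) genome with STAR and deposited raw read counts for each Ensembl gene, with 1 table for each of the 3 areas. The counting tool and its use of strand are not given in the sources used here, so that overlapping genes and near-identical copies may share reads. Table columns were matched to samples by name (0 columns of per-sample values unused), and tables were joined by identifier. The study's methods used DESeq2 (R 3.1.0) and left out 2 hippocampal control libraries for low alignment. Here all 10 hippocampal libraries were kept in the comparison.

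R 4.3.3 was used here with DESeq2 1.42.0, edgeR 4.0.16 and limma 3.58.1. Genes were kept by filterByExpr (minimum count 10, minimum total 15), scaled by TMM and tested by edgeR's quasi-likelihood test (robust fit), with p-values adjusted by Benjamini-Hochberg over all genes tested and a threshold of 0.05. CPM values were TMM-scaled, with a prior count of 3 for their log2. The scripts were tested on simulated data. Depth was 23903839 to 30446501 counts per hippocampal library, and the number of rats limits the precision. The interaction of area and treatment was fitted over 20 libraries, with the rat as a replicate block as an alternative, since hippocampus and cortex of a rat share its number and, by the labels, its animal. Library identity was compared through genes that varied between rats in parallel in cortex and thalamus (correlation over 0.8, SD over 0.3, alternative 0.2) and through genes at levels at least 1.5 log2 units apart. Alternatives were DESeq2, RLE size factors, no filter, voom with quality weights, a covariate for the share held by the 10 most counted genes, and libraries left out. Those added after the data were seen were pairs of libraries, a further library left out beside those labelled rat 3 and rat 8, the FC codes, the filtering setting of DESeq2, the matches over 26 and 49 genes and the interaction without 4 libraries. The identifiers named were the 2 of each direction with the smallest p at a mean of at least 1 CPM. Lists of genes and cell type markers could not be applied, because no identifier had a name. The comparison, the lists and the doubts about libraries were chosen with earlier results of these data known.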

Additional observations from a re-analysis of the deposited data

Results flagged for a closer look

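One value stood apart from its group by Dixon's criterion, which was applied to 30 groups of 5 samples and marks about 1 group in 20 by chance. ENSRNOG00000000007 reached 177.6 CPM in its highest sham library of the cortex, where the mean of the 5 sham rats was 159 ± 10.8 CPM (SD, n = 5). All 5 rats with TBI lay below the sham rats there.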

How the results depend on the processing

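No setting changed the sign of any of the 4 identifiers. With all 10 libraries, edgeR called 0 genes under RLE scaling, no filter and the covariate, limma's voom with weights called 0, and DESeq2 called 11 higher and 30 lower, or 7 and 8 with its filtering tuned to 0.1. With 1 library left out, edgeR called 0 to 1 higher and 0 lower genes and DESeq2 0 to 291 higher and 0 to 118 lower, and the other 24 pairs left out gave 0 to 3 higher and 0 lower genes in edgeR. Without libraries 3, 8 and a further one, edgeR called 94 to 279 higher and 5 to 37 lower genes. Without libraries 3 and 8 there were 246 higher and 17 lower genes by edgeR and 398 and 120 by DESeq2, without libraries 3, 4, 5 and 8 there were 76 and 6, within 1 FC code without libraries 3 and 8 there were 89 and 15, and without libraries 4 and 5 DESeq2 called 0 and 1. The interaction count of 537 became 1048 with the rat as replicate block, 1009 in DESeq2, 117 to 763 with each rat left out, 272 without hippocampal libraries 4 and 5, 126 without 3 and 8, and 34 without 3, 4, 5 and 8. The block changed no other result, since the hippocampal comparison has 1 library per rat. For the counts without libraries 3, 4, 5 or 8 fewer samples were used, and the cause of the changes was not tested. Medians of the lists of genes by function and cell type were not computed, because no identifier had a name. The scarcest of the 4 identifiers rested on 21 to 104 counts per library and the others on at least 74.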
